A study of Mus musculus with 8 samples.

Results

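Transcripts of the 3 TGF-β ligands Tgfb1, Tgfb2 and Tgfb3, of the receptor Tgfbr1 and of the inhibitory Smad gene Smad7 were measured in mouse conjunctiva under desiccating stress (DS). These 5 genes were chosen by symbol from the 248 genes of a nanoString nCounter inflammation panel, and all 5 are in the table. Conjunctival RNA came from 4 DS mice gavaged with tributyrin, a triglyceride that releases butyrate, and from 4 DS mice gavaged with PBS vehicle. All 8 were female C57BL/6J mice, labelled as 8 weeks old, and each was kept for 5 days in dry moving air with scopolamine injections to block tear secretion. Each mouse received 100 µl of PBS or of 0.5 mM tributyrin once a day by oral gavage. The mice are numbered 9 to 12 with tributyrin and 5 to 8 with vehicle, after their sample labels. As an unstressed group was not analysed here, every value below was measured under DS.

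TGF-β ligands are secreted in a latent form and, once released, bring together the type II receptor and the type I receptor TGFBR1, a kinase that phosphorylates Smad2 and Smad3. Smad7 is induced by the pathway and closes a feedback loop, since it binds the activated type I receptor, blocks Smad2 and Smad3 and recruits ubiquitin ligases to the receptor. At mucosal surfaces such as the conjunctiva TGF-β is known to restrain dendritic cells and to favour regulatory T cells, while together with IL-6 it favours Th17 cells. The transcript level of a ligand does not show how much of it is in the active form.

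Only sequences of the start regions could be set beside the ligand levels, as probe sequences were not used here. Those of Tgfb1 and Tgfb2 are shown because these were the ligands with the highest and the lowest level in this tissue. Each window spans 250 bases before to 50 bases after the RefSeq transcript start in GRCm38.p6, 5′ to 3′ on the strand of the gene. Capitals mark every match, on either strand, to TATAAA (the core of a TATA box), GGGCGG (a GC box), CACGTG (an E-box) or TGACG (the core of a cAMP response element).
Tgfb1, chr7:25686752-25687051, plus strand: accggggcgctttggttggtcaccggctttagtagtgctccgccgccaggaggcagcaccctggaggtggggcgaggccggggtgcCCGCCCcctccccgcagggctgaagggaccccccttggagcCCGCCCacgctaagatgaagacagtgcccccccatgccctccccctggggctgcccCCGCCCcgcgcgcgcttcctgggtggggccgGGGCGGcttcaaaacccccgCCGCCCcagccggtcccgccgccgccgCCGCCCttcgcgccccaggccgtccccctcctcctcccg
Tgfb2, chr1:186705940-186706239, minus strand: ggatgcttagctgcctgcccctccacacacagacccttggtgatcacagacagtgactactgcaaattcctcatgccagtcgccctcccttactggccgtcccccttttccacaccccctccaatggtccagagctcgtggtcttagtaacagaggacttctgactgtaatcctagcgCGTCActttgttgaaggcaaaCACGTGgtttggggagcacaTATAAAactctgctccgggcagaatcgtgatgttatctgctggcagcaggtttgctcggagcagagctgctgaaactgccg

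The Tgfb1 window held 6 matches to GGGCGG and none to the other motifs, with 30 CpG dinucleotides and 77% G and C. The Tgfb2 window held 1 TATAAA, which starts 31 bases before the transcript start, 1 CACGTG and 1 TGACG, and no GGGCGG, with 10 CpG dinucleotides and 54.3% G and C. Among 32851 windows of the same length, 13.6% held TATAAA, 35.7% GGGCGG, 7.15% CACGTG and 20.8% TGACG, with a median of 7 CpG dinucleotides. For Tgfbr1, RefSeq gave 2 windows, of which the one with the higher CpG count (34) held 2 matches to GGGCGG. Tgfb3 and Smad7 are named only. These matches describe letters and were not compared with binding of any factor.

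Tgfbr1, the type I receptor, was the most abundant of the 5 transcripts, followed by Tgfb1, Smad7, Tgfb3 and Tgfb2. The nCounter assay counts 1 barcoded probe pair for each transcript without amplification, so that a count does not grow with transcript length, but probes can differ in efficiency and the order of levels is a description. Over the 8 mice the mean normalized count (scaled by the authors to reference genes) was 20806 for Tgfbr1, 4902 for Tgfb1, 1324 for Smad7, 211 for Tgfb3 and 143 for Tgfb2, which placed them 12th, 46th, 92nd, 128th and 135th of the 248 genes. The ranges over mice did not overlap between Tgfbr1, Tgfb1, Smad7 and Tgfb3. Tgfb3 and Tgfb2 were the only neighbours in this order whose ranges overlapped, at 140 to 312 and 94.1 to 189 normalized counts. Within each mouse, however, Tgfb3 was above Tgfb2 in 8 of 8 mice, by 1.11-fold to 1.92-fold.

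Tgfb1, the ligand made by most immune cells, was alike in both groups. It had 5142, 4734, 5155 and 4596 normalized counts in tributyrin mice 9 to 12, against 5132, 4727, 5202 and 4527 in vehicle mice 5 to 8. The groups covered nearly the same span, and the lowest and the highest value both came from vehicle mice. The mean was 4907 ± 285 with tributyrin and 4897 ± 324 with vehicle (SD, n = 4 each). On the log2 scale tributyrin over vehicle came to a fold change of 0.0034 (standard error 0.070, 95% interval -0.16 to 0.17, limma adjusted p = 0.991). This interval corresponds to a ratio of 0.896 to 1.12.

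Tgfb2, the isoform best known from ocular tissues and fluids, was the least abundant ligand. Tributyrin mice had 160, 107, 156 and 162 normalized counts, against 131, 189, 141 and 94.1 in vehicle mice. The highest and the lowest value both came from vehicle mice, and tributyrin mouse 10 lay well below the other tributyrin mice. The log2 fold change was 0.10 (standard error 0.22, 95% interval -0.42 to 0.63, limma adjusted p = 0.830). It was -0.067 without vehicle mouse 8 and 0.25 without tributyrin mouse 10, and its sign thus turned on leaving out vehicle mouse 8.

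Tgfb3, a ligand known from palate development and wound repair, had the largest log2 fold change in size of the 5 genes, but also the widest spread. Tributyrin mice had 276, 152, 198 and 312 normalized counts, against 215, 210, 186 and 140 in vehicle mice. Tributyrin mice 9 and 12 were above all vehicle mice, while tributyrin mice 10 and 11 lay inside the vehicle range. The mean was 234 ± 72.8 with tributyrin and 188 ± 34.6 with vehicle (SD, n = 4 each). The log2 fold change was 0.28 (standard error 0.25, 95% interval -0.29 to 0.86, limma adjusted p = 0.667).

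Mice 9 and 12 also had the lowest totals before scaling and the largest scaling factors, 1.56 and 1.24, where the other 6 mice had 0.741 to 1.08. Without these mice the log2 fold change of Tgfb3 was -0.095 and that of Tgfb2 was -0.055. Before scaling, Tgfb3 stood at 177, 181, 218 and 252 counts in tributyrin mice, against 265, 194, 251 and 129 in vehicle mice. Of the 19 panel genes with a mean of 100 to under 300 normalized counts, among them Tgfb2 and Tgfb3, 14 were above 0 in log2 fold change (median 0.10). Over the whole panel 177 of 248 genes were above 0 (median 0.055), a similar share.

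**Figure D1:**
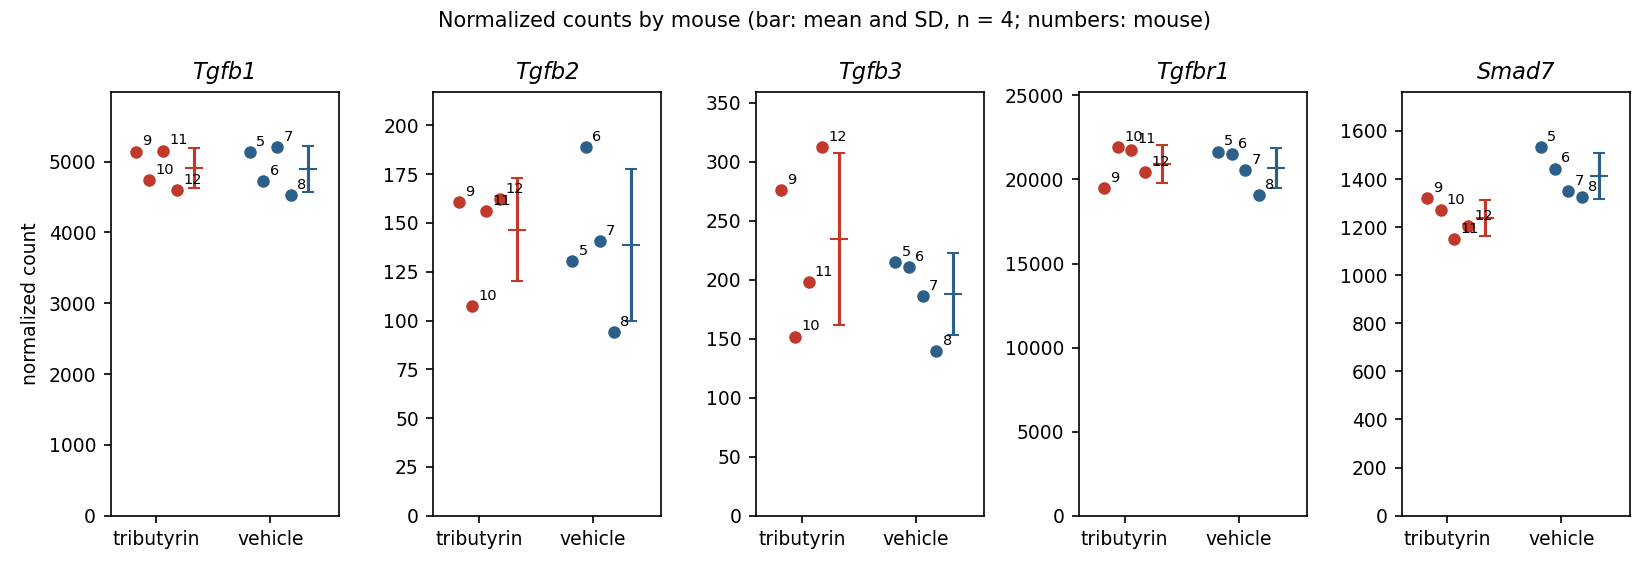
Normalized count of each gene (vertical axes, each from 0) in the tributyrin mice (red) and the vehicle mice (blue), with mouse numbers and with the mean and SD of 4 mice as bars. Groups overlap for Tgfb1, Tgfb2, Tgfb3 and Tgfbr1, and for Smad7 the tributyrin mice (1151 to 1321) lie below the vehicle mice (1324 to 1532).

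Tgfbr1, the signalling receptor, did not differ beyond the spread between mice. Its normalized count was 19501, 21916, 21782 and 20450 in tributyrin mice, against 21662, 21494, 20559 and 19084 in vehicle mice. The lowest value came from a vehicle mouse and the highest from a tributyrin mouse, and the ranges overlapped almost fully in the deposited values. The log2 fold change was 0.015 (standard error 0.066, 95% interval -0.14 to 0.17, limma adjusted p = 0.935), which corresponds to a ratio of 0.909 to 1.12. Without mice 9 and 12 it was 0.080 (adjusted p = 0.922) and with quantile normalization 0.076 (adjusted p = 0.421), and in both cases all tributyrin mice were above all vehicle mice, as for 20 and 9 of the 248 genes.

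Smad7, the inhibitor of the receptor, was the only one of the 5 genes whose groups did not overlap, where 18 of the 248 genes (7.26%) had such groups in either direction. Its normalized count was 1321, 1271, 1151 and 1204 in tributyrin mice, against 1532, 1444, 1349 and 1324 in vehicle mice. All 4 tributyrin mice were below all 4 vehicle mice, but tributyrin mouse 9 and vehicle mouse 8 lay within 0.0027 on the log2 scale of each other, less than the counting error of either. The mean was 1237 ± 74.9 with tributyrin and 1412 ± 95.4 with vehicle (SD, n = 4 each), a difference of 12.4%. The log2 fold change was -0.19 (standard error 0.071, 95% interval -0.36 to -0.026), and its unadjusted limma p was 0.0282.

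Adjusted over the 248 genes, the limma p of Smad7 was 0.366, so that the difference did not pass the test. Groups did not overlap, with lower values in tributyrin mice, for 10 of the 248 genes (4.03%), while 31 genes (12.5%) had a limma p under 0.05 before adjustment, of which 13 (5.24%) had lower values with tributyrin. At a mean of 1000 to under 3000 normalized counts lay 30 panel genes, among them Smad7. Of these 30, 18 were below 0 in log2 fold change (median -0.037), where 71 of all 248 genes were, and 4 had lower values without overlap. By unadjusted p Smad7 was 19th of the 248 genes. At an adjusted limma p of 0.05 neither the 5 genes nor any other gene of the panel passed (0 of 248, 0%), where voom on recovered counts called 7 genes, none of them among the 5. Median centring over the panel made the groups of Smad7 overlap at a log2 fold change of -0.21, and quantile normalization brought it to -0.0077. Without the mice with the largest scaling factors it was -0.22. Leaving out mice cannot make separate groups overlap, and 8.87% of the panel then had lower values without overlap.

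**Figure D2:**
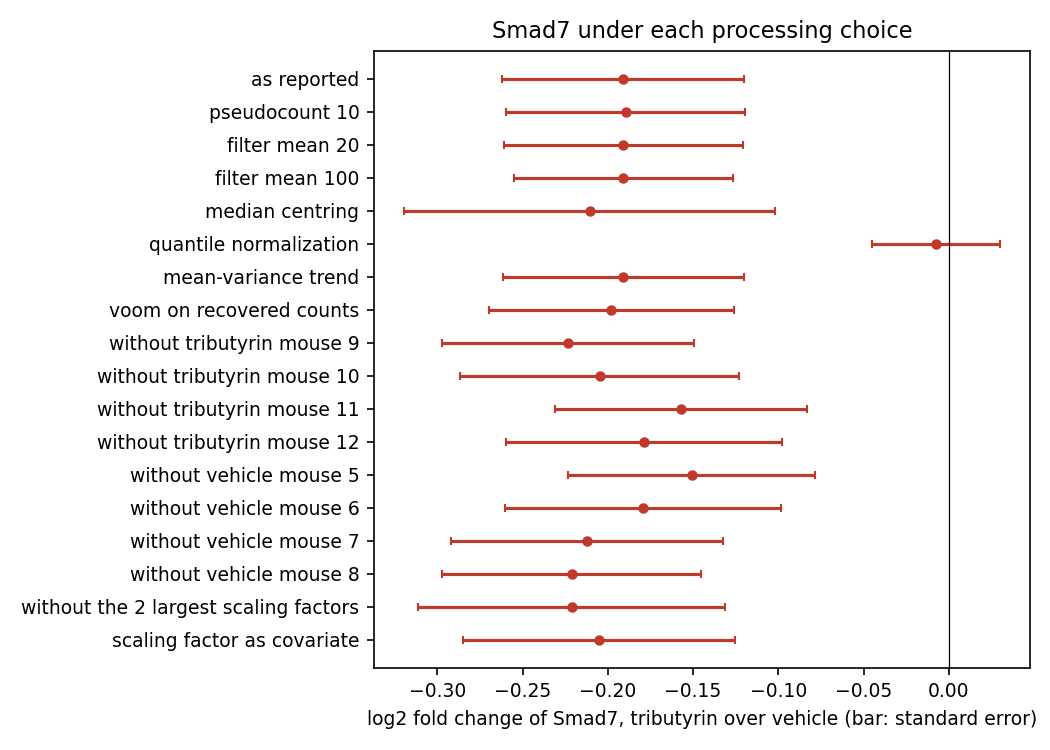
Log2 fold change of Smad7, tributyrin over vehicle (horizontal axis, bars are standard errors), as reported and under each other processing choice (rows). All values lie below 0, between -0.22 and -0.15 except with quantile normalization, where the value was -0.0077.

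Set against its receptor within each mouse, which removes the scaling factor, Smad7 was at a log2 ratio to Tgfbr1 of -3.88, -4.11, -4.24 and -4.09 in tributyrin mice, against -3.82, -3.90, -3.93 and -3.85 in vehicle mice. Tributyrin mouse 9 lay inside the vehicle range and the other tributyrin mice below it. The mean was -4.08 ± 0.15 with tributyrin and -3.87 ± 0.048 with vehicle (SD, n = 4 each), and this ratio was described after its values were seen, with no test.

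**Figure D3:**
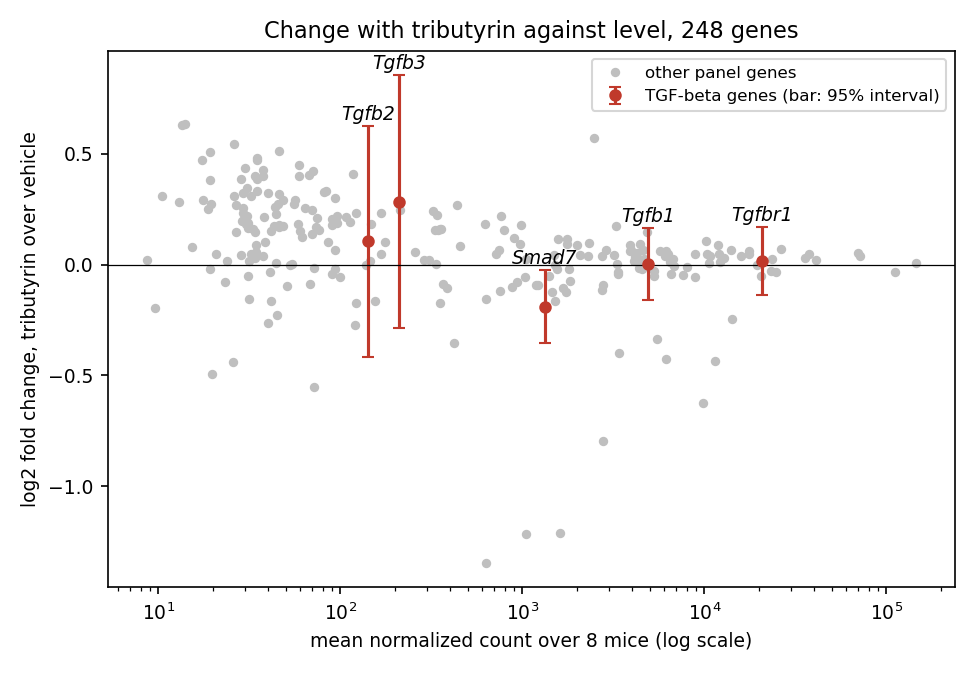
Log2 fold change, tributyrin over vehicle (vertical axis), against the mean normalized count over the 8 mice (horizontal log axis) for the 248 genes, with the 5 TGF-β genes in red and their 95% intervals. The interval of Smad7 (-0.36 to -0.026) does not include 0, and those of Tgfb2 and Tgfb3 are the widest of the 5.

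Of the summed ligand counts, Tgfb1 made up 90.6% to 95.1% over the 8 mice, Tgfb3 2.93% to 6.16% and Tgfb2 1.98% to 3.68%. Tgfb1 exceeded Tgfb2 by 32.0, 44.1, 33.0 and 28.3-fold in tributyrin mice, against 39.3, 25.0, 37.0 and 48.1-fold in vehicle mice. It exceeded Tgfb3 by 18.6, 31.2, 26.1 and 14.7-fold in tributyrin mice, against 23.9, 22.5, 28.0 and 32.4-fold in vehicle mice. The smallest excess over Tgfb3 was found in tributyrin mice 12 and 9, and the smallest excess over Tgfb2 in vehicle mouse 6.

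Whether the isoforms shifted against each other was tested on these ratios, which do not contain the scaling factor of a mouse. The mean log2 ratio of Tgfb1 over Tgfb2 was 5.08 ± 0.27 with tributyrin and 5.18 ± 0.39 with vehicle (SD, n = 4 each), a difference of -0.10 (95% interval -0.69 to 0.48). That of Tgfb1 over Tgfb3 was 4.44 ± 0.48 with tributyrin and 4.72 ± 0.24 with vehicle, a difference of -0.28 (95% interval -0.94 to 0.38). That of Tgfb2 over Tgfb3 was -0.64 ± 0.27 with tributyrin and -0.46 ± 0.24 with vehicle, a difference of -0.18 (95% interval -0.62 to 0.26). No ratio differed beyond the spread between mice, and all 3 had overlapping groups. Over all 70 assignments of the 8 mice, the two-sided exact permutation p was 0.686 for Tgfb1 over Tgfb2, 0.371 for Tgfb1 over Tgfb3 and 0.40 for Tgfb2 over Tgfb3. Adjusted over the 3 ratios these were p = 0.686, 0.60 and 0.60 by the exact permutation test, where 4 against 4 mice allow no unadjusted p below 0.0286. All 3 differences turned positive without mice 9 and 12, at 0.070, 0.11 and 0.041.

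**Figure D4:**
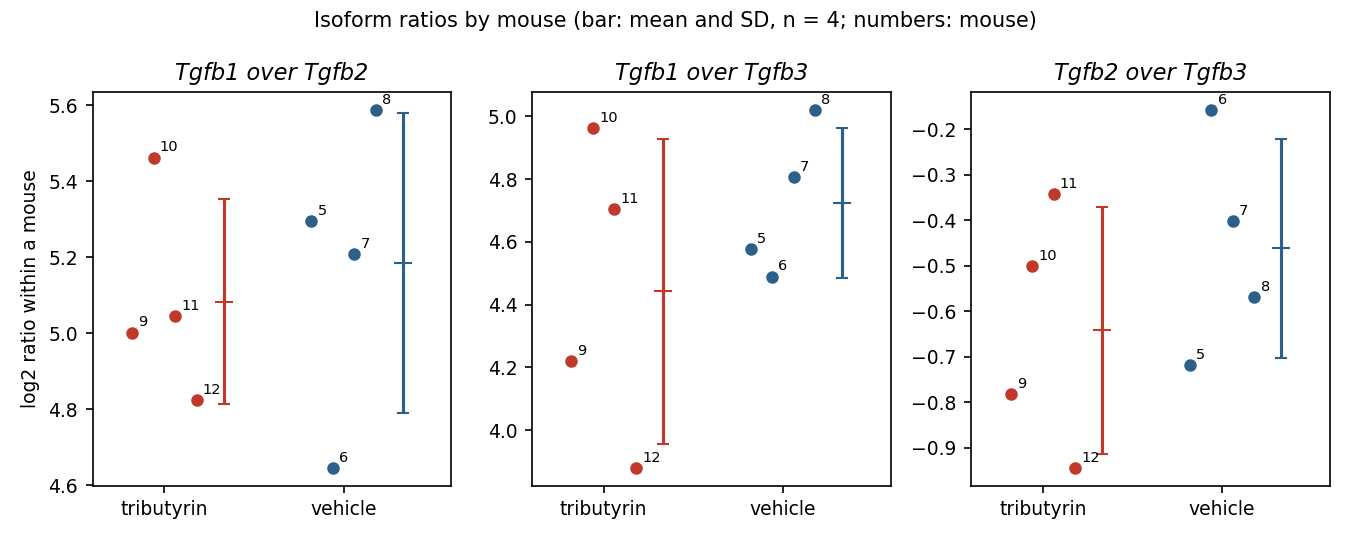
Log2 ratio of each pair of TGF-β ligands within a mouse (vertical axes, which do not start at 0) in tributyrin mice (red) and vehicle mice (blue), with the mean and SD of 4 mice as bars. The groups overlap in each panel, and tributyrin mice 9 and 12 have the lowest ratios of Tgfb1 over Tgfb3.

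The 5 genes fell into a less and a more variable set, which also differed in level. The coefficient of variation between mice was 5.80% with tributyrin and 6.61% with vehicle for Tgfb1, 5.50% and 5.71% for Tgfbr1, and 6.06% and 6.75% for Smad7. It was 17.9% with tributyrin and 28.2% with vehicle for Tgfb2, and 31.1% and 18.4% for Tgfb3. The counting error of a single mouse was 7.25% to 10.7% for Tgfb2, from 87 to 190 counts, and 6.14% to 8.80% for Tgfb3, from 129 to 265 counts. It was 2.30% to 3.43% for Smad7, 1.19% to 1.74% for Tgfb1 and 0.60% to 0.894% for Tgfbr1. These errors cover counting only. By within-group SD of log2 values Tgfb3 was 26th and Tgfb2 39th of the 248 genes, against 185th for Smad7, 186th for Tgfb1 and 193rd for Tgfbr1. This SD was 0.39 for Tgfb3 and 0.36 for Tgfb2, where panel genes with a mean of 100 to under 300 had a median of 0.23. Smad7 had 0.092, where the median at a mean of 1000 to under 3000 was 0.10. Tgfb1 had 0.090 and Tgfbr1 0.082, both above the median of 0.063 for genes with a mean of at least 3000.

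Tgfb2 and Tgfb3 varied together over the 8 mice (Pearson r = 0.76, Spearman correlation = 0.74, and r = 0.77 with the group means removed). For the other 9 pairs among the 5 genes, r lay between -0.091 and 0.32. These correlations are descriptions over 8 mice that share the scaling factor of each mouse, with no test. The genes most alike to Tgfb3 among the 174 others with a mean of at least 50 were Cfb, the complement protease factor B (r = 0.93), Mrc1, the macrophage mannose receptor (r = 0.88), and Ccr2, the receptor that draws in inflammatory monocytes (r = 0.87). Those most alike to Tgfb2 were the complement gene C4a (r = 0.88), Tgfb3, and Nod1, a sensor of bacterial peptidoglycan (r = 0.76).

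Tributyrin mice 9 and 12 stood high for the companions of Tgfb3 as well. Cfb had 111, 45.3, 73.5 and 145 normalized counts in tributyrin mice, against 67.3, 79.2, 68.1 and 59.5 in vehicle mice. Mrc1 had 259, 176, 195 and 298 in tributyrin mice, against 211, 177, 233 and 155 in vehicle mice. Of 15 listed macrophage, monocyte and dendritic cell markers 9 were measured, and their summed level was 1765, 1368, 1374 and 1921 in tributyrin mice, against 1463, 1282, 1543 and 1485 in vehicle mice. Tgfb3, these markers and the scaling factor were thus all highest in mice 9 and 12, and their part in the Tgfb3 values was not tested. Of 5 stroma and vessel markers the 2 measured, Flt1 and Twist2, summed to 329, 217, 211 and 391 with tributyrin, against 288, 183, 249 and 241 with vehicle, again highest in mice 9 and 12. In bulk tissue, more cells of a type and more RNA per cell cannot be told apart. Of 8 listed T cell markers 5 were measured, at a summed 139 to 162 with tributyrin and 124 to 158 with vehicle, and of 7 listed markers of conjunctival epithelium and goblet cells none was measured, so that the tissue label could not be checked on them.

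The genes most alike to Smad7 were Oasl1, a relative of the oligoadenylate synthetases (r = 0.92), Irf7, a transcription factor of the type I interferon response (r = 0.88), and Tlr2, a receptor for bacterial lipoproteins (r = 0.87). With the group means removed r was 0.82, 0.73 and 0.90 for Oasl1, Irf7 and Tlr2. Irf7 had 5019, 4731, 4922 and 4782 normalized counts in tributyrin mice, against 6690, 6223, 5838 and 5822 in vehicle mice. Its groups did not overlap, and the vehicle mice had the same order for Irf7 as for Smad7, whereas tributyrin mouse 11 was the lowest of its group for Smad7 and the second highest for Irf7. Irf7 was at a log2 fold change of -0.33 (limma adjusted p = 0.0516), that of Oasl1 was -0.24 (adjusted p = 0.366) and that of Tlr2 was -0.10 (adjusted p = 0.606). The most alike to Tgfbr1 were Hif1a, the oxygen-responsive transcription factor (r = 0.83), Map3k7, the kinase TAK1 that the receptor activates (r = 0.78), and the chemokine Ccl20 (r = 0.78). For Tgfb1 they were Hmgn1, Ifit2 and Prkcb, at r = 0.71, 0.71 and 0.69. All these genes were picked for the highest r among 174 genes over 8 mice, which alone favours high values, and none was tested.

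**Figure D5:**
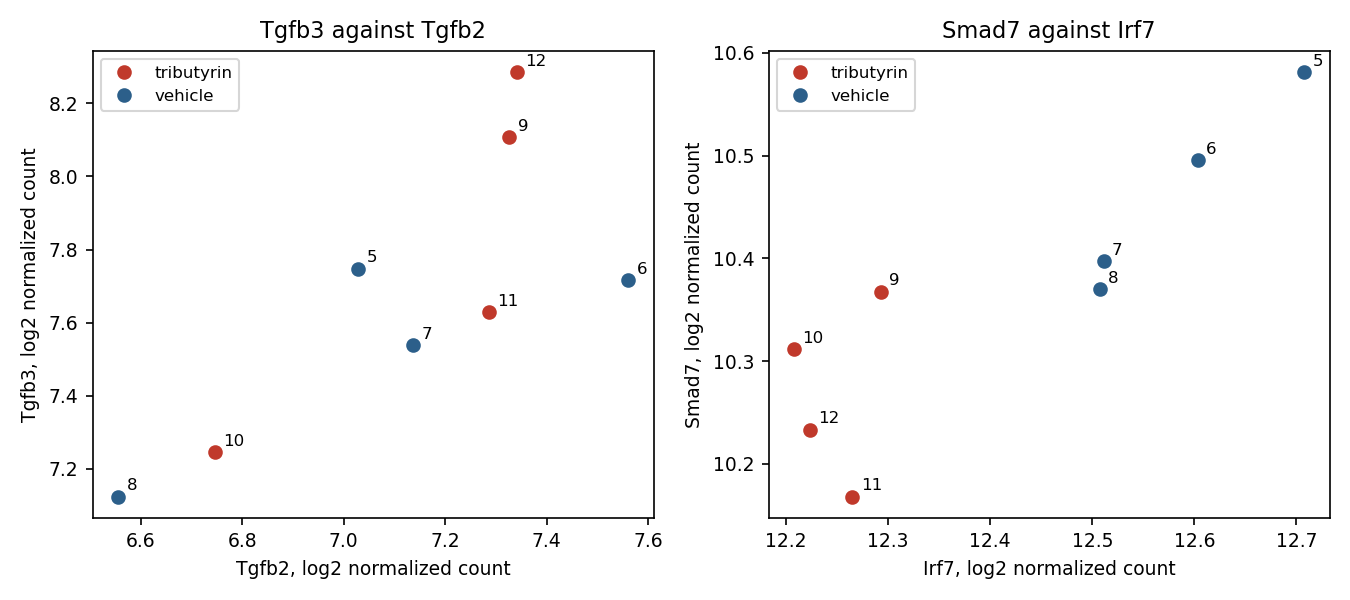
Log2 normalized count of Tgfb3 against Tgfb2 (left) and of Smad7 against Irf7 (right), 1 point per mouse with its number, tributyrin in red and vehicle in blue. Tgfb2 and Tgfb3 are lowest in vehicle mouse 8 and tributyrin mouse 10, and the Smad7 and Irf7 values of the tributyrin mice are all below those of the vehicle mice.

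Downstream of the receptor, the panel holds kinases of the routes that do not use Smads, while none of 31 further receptors, Smads, ligands and activators of the TGF-β superfamily that were listed is in the table. Of 12 listed genes of the TAK1 route to p38 and JNK 9 were measured, and 0 passed the test, with a median log2 fold change of 0.047 where that of all 248 genes was 0.055. In this list Fos, an immediate-early transcription factor, had 9904 ± 3172 normalized counts with tributyrin and 12957 ± 2105 with vehicle (SD, n = 4 each), a log2 fold change of -0.43 (limma adjusted p = 0.480). Mapkapk2, a kinase activated by p38, had -0.056 (adjusted p = 0.673). Mapk14, which encodes p38α and was named after its values were seen, was the 1 member of the list with groups that did not overlap, at 0.047 (adjusted p = 0.673), where 3.23% of the panel had higher values without overlap.

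Of 10 listed genes of the Shc, Ras and Raf route 7 were matched by symbol and 0 passed, with a median of 0.020 over these 7. The Ras gene, listed as Hras, is in the panel as Hras1 and was not counted. Named after its values were seen, Hras1 had a log2 fold change of 0.093 (limma adjusted p = 0.673). The MAP kinase gene Mapk3 had a log2 fold change of 0.062 (limma adjusted p = 0.679), and Map2k1, a kinase upstream of it and the most abundant gene of the list, had -0.028 (adjusted p = 0.820). Of 9 listed genes of the small GTPase route, by which TGF-β reaches the actin cytoskeleton, 8 were measured and 0 passed, with a median of 0.037. Rac1 had 0.052, the focal adhesion kinase gene Ptk2 had 0.063 and the most abundant, Cdc42, had 0.0068 (adjusted p = 0.673, 0.673 and 0.939). In these 3 routes the log2 fold changes lay between -0.056 and 0.086 for every gene matched by symbol except Fos.

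Of 18 listed genes known to respond to TGF-β 8 were measured and 0 passed, with a median of 0.17 where that of all 248 genes was 0.055. As the list was not split into genes induced and genes repressed by TGF-β, its median gives no direction of a response. Mmp3, the matrix protease stromelysin, had 3066, 2658, 2288 and 3717 normalized counts in tributyrin mice, against 2534, 1800, 2281 and 1361 in vehicle mice. Most tributyrin mice were above the vehicle mice, but mouse 11 lay below vehicle mouse 5. The log2 fold change of Mmp3 was 0.57 (standard error 0.22, limma adjusted p = 0.366). Mmp9, a gelatinase of the dry eye epithelium, had 0.27 (adjusted p = 0.454) at a mean under 50 normalized counts in vehicle mice, and Myc, which TGF-β represses in epithelial cells, had 0.15 (adjusted p = 0.523).

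Of 13 listed cytokines and factors of Th17 and regulatory T cells 10 were measured and 0 passed, with a median of 0.010. Il17a, the signature cytokine of Th17 cells, had 34.3, 23.5, 36.3 and 29.7 normalized counts in tributyrin mice, against 17.8, 22.8, 20.7 and 22.7 in vehicle mice. Every tributyrin mouse was above every vehicle mouse, as for 8 of the 248 panel genes (3.23%). These levels are low and were not compared with a background level. Of the 73 panel genes with a mean under 50, 62 had a log2 fold change above 0, where 177 of all 248 genes did. That of Il17a was 0.55 (limma adjusted p = 0.167). Il21, another Th17 cytokine, had 0.40 (adjusted p = 0.454), and Stat3, the transcription factor downstream of IL-6 and the most abundant of the list, had 0.025 (adjusted p = 0.807). Among the marker genes, Ccr7 had a log2 fold change of 0.64 (adjusted p = 0.0752) at 17.2 ± 3.34 normalized counts with tributyrin and 10.9 ± 0.97 with vehicle (SD, n = 4 each), Ccr2 had 0.41 (adjusted p = 0.321), Itgb2 had 0.22 (adjusted p = 0.366) and Tyrobp, the most abundant of the myeloid list, had 0.16 (adjusted p = 0.673). Lta, a T cell cytokine, had -0.26 (adjusted p = 0.454), Twist2 had 0.22 (adjusted p = 0.667) and Flt1 had 0.23 (adjusted p = 0.705).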

How the data were processed

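Conjunctival nCounter counts were scaled by the authors to the geometric mean of reference genes in ROSALIND, and deposited on the log2 scale, with 248 genes in rows and the 8 mice in columns. The sources used here do not state a background subtraction. After undoing the log2, all values of a mouse (100%, tolerance 0.001) were whole multiples of a common step, which gave the scaling factor and the count before scaling. Recovered totals were 742068 to 1344723 counts in the tributyrin mice and 1035041 to 1494519 in the vehicle mice.

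Groups were compared with limma 3.58.1 in R 4.3.3 on the deposited log2 values (lmFit and eBayes without a trend, two-sided), with Benjamini-Hochberg adjustment over 248 genes. Ligand ratios were compared by exact permutation, with intervals from the pooled SD. Counting error is 100 divided by the square root of the count. Python 3.11.15, NumPy 2.4.6, SciPy 1.17.1, pandas 2.3.3 and matplotlib 3.10.9 were used. The fit was tested on simulated data. Other settings tried were voom on recovered counts, an exact rank test, a mean-variance trend, quantile normalization, centring on the median, minimum means of 20 or 100, a pseudocount of 10, leaving out each mouse, leaving out the 2 mice with the largest scaling factors, and the scaling factor as a covariate. Whether groups overlap was also checked under other scalings, chosen after seeing the data.

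The genes and lists were chosen with earlier results of these data known. Genes named are the 5 chosen, from each list the 2 with the lowest p before adjustment and the most abundant, and the 3 genes most alike to each of the 5 by Pearson r, except where named after their values were seen. A gene that these rules chose from a list is not reported here and was passed over. P-values set a group difference against the spread between these mice, which limma estimates for each gene with help from the whole panel. Start regions are from RefSeq, GRCm38.p6, matched by gene identifier. Those of 3 of the 5 genes are described, and those of Tgfb3 and Smad7 were not examined.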

Additional observations from a re-analysis of the deposited data

Results flagged for a closer look

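Tributyrin mouse 10 stood far from the other tributyrin mice for Tgfb2 (log2 value 6.75, others 7.29 to 7.34), and vehicle mouse 8 stood far from the other vehicle mice for Prkcb, a protein kinase C gene alike to Tgfb1 (10.26, others 10.64 to 10.70). Among 84 groups of 4 mice examined, 2 had such a mouse, where chance gives about 1 in 20, or 4.2. Mouse 10 was also the lowest tributyrin mouse for Tgfb3 and Cfb, and vehicle mouse 8 the lowest of its group for Tgfb2, Tgfb3 and Cfb.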

How the results depend on the processing

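Past an adjusted p of 0.05 lay 0 genes as reported, but 7 by voom, 7 by a mean-variance trend, 6 after centring on the median, 6 at a minimum mean of 20, 7 at a minimum mean of 100 and 6 when a pseudocount of 10 was added. Leaving out each mouse gave 0 to 6 (vehicle mouse 8 left out 6, tributyrin mouse 11 left out 4, vehicle mouse 5 left out 1). The count stayed 0 with quantile normalization, the covariate and without mice 9 and 12. It was also 0 by the exact rank test, but that test could not decide the question. With 4 against 4 mice its unadjusted p cannot fall below 0.0286. Smad7, whose groups did not overlap, had this smallest rank test p, and adjustment over the panel raised it to 0.394. None of the 5 genes passed under any of the alternatives, of which the rank test carries no weight for this reason. Smad7 kept its direction in all 18, at -0.22 to -0.0077 (adjusted p 0.255 to 0.989), and at -0.22 to -0.15 without each mouse. Of 126 alternative values of the 5 genes and 3 ratios, 109 kept their direction and side of the threshold and 17 changed sign, none past the threshold. The minimum means, the mean-variance trend and the exact rank test leave these values as they were. Their direction, also for Smad7, was thus fixed in advance. Tgfb1 turned to -0.016 with median centring and -0.0037 with voom, and ranged from -0.034 to 0.034 without each mouse. Tgfbr1 turned to -0.0048 with median centring, was 0.080 without mice 9 and 12, 0.076 with quantile normalization and 0.058 with the covariate, and ranged from -0.024 to 0.048 without each mouse. Without mice 9 and 12 the sign changed for Tgfb2 (-0.055), Tgfb3 (-0.095) and the ratios of Tgfb1 over Tgfb2 (0.070), Tgfb1 over Tgfb3 (0.11) and Tgfb2 over Tgfb3 (0.041). Without each mouse Tgfb2 ranged from -0.067 to 0.27, Tgfb3 from 0.13 to 0.48, and the ratios from -0.28 to 0.033, from -0.46 to -0.094 and from -0.28 to -0.079. For each of these, the cause was not tested. No paired analysis was possible because no mouse number occurs in both groups. Tgfb2 and Tgfb3 had the lowest depth of the 5 genes, with 87 to 265 counts in a mouse, and their counting error (6.14% to 10.7%) was below their variation between mice (17.9% to 31.1%).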
